A study of Mus musculus with 14 samples.

Results

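The ribosome biogenesis genes described here encode proteins that make ribosomes in the nucleolus without being part of the finished ribosome. The list goes by known function but was chosen with earlier results of these data known. Its 42 genes were matched by symbol to 42 of the 39179 gene IDs in the count tables. They cover 6 roles: 5 genes of RNA polymerase I transcription, 2 abundant nucleolar proteins, 6 genes of small nucleolar ribonucleoproteins (snoRNPs) and rRNA modification, 10 of the small subunit processome, 4 of late small subunit assembly and export, and 15 of large subunit assembly. Their messenger RNA was followed beside that of Myc, a transcription factor known for raising the expression of such genes.

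The cells were follicular B cells of C57BL/6 mice, taken from spleen with a bead-based isolation kit and kept in RPMI medium with 50 ng/ml BAFF, a cytokine that keeps B cells alive. There were 7 groups of 2 libraries each: cells lacking both RelB and cRel (labelled dbko, relb-/-crel-/-) at 6h and 0h, cells lacking cRel (labelled cko, crel-/-) at 6h and 0h, and wild type cells (wt) at 0h, 6h and 27h. RelB and cRel are NF-kB transcription factors activated by BAFF and antigen receptor signals. Whether both libraries of a group were made from different mice is not stated by the labels. The p-values reflect only how far libraries of the same group lay apart. That spread was estimated over all 7 groups together, so a p-value also carries the spread of groups not compared. No culture without BAFF was analysed here, so BAFF and time in culture cannot be told apart. In bulk RNA, fewer cells of a type and less RNA per cell cannot be told apart either.

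A ribosome begins as a long precursor rRNA that RNA polymerase I makes in the nucleolus. SnoRNPs modify it, the small subunit processome folds and cuts it, and separate sets of factors build the small and large subunits and escort them to the cytoplasm. Resting lymphocytes make few ribosomes, and the pathway is turned up when they prepare to grow and divide. Poly-dT priming measured the messengers of these factors and not the rRNA they process.

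Gene counts summed to 10497802 to 11888765 per library, and every member had between 100 and 24899 counts in every library. All 42 passed the filter on low counts. CPM is a gene's count as a share of the library's gene counts, scaled by TMM. Summed over the 9 B cell markers matched, it lay between 5942 and 11877 in every library. The 8 T cell markers summed to 51.5 to 99.5 CPM, with Lck at 34.6 to 95.8 CPM and Cd3e at 0.183 CPM or less. Cd8a stood at 14.5 and 20.6 CPM in dbko at 0h, against 4.27 and 3.19 CPM in wt at 0h. Rel stood at 61.3 CPM or less in dbko and 52.4 to 111 CPM in cko, against 196 to 683 CPM in wt. Relb stood at 52.9 and 65.6 CPM in dbko at 0h, against 115 and 117 CPM in wt at 0h. At 6h it stood at 67.7 and 88.3 CPM in dbko, against 149 and 164 CPM in wt. The labels do not say which part of Relb is deleted, so its level was not used to check the dbko label.

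The dbko libraries stood apart before any result was drawn from them. Replicate 1 and replicate 2 of dbko differed by a chi-square of 35.54 per gene at 6h and 30.92 at 0h, against 2.84 to 4.76 for the 3 wt pairs and 3.92 for cko at 0h. The cko pair at 6h also stood apart, at 22 per gene. Of its reads 9.76 and 5.21% were tallied as falling on no counted feature, and 39.75 and 46.46% aligned to more than 1 place. The 9 erythroid markers summed to 227 and 104 CPM in dbko at 6h, and to 1097 and 542 CPM before culture, against 1.92 to 12.1 CPM in wt. In cko they summed to 4.39 and 6.70 CPM at 6h and to 55.4 and 58.8 CPM before culture. Macrophage markers summed to 242 and 86.0 CPM in dbko at 6h and to 27.5 and 28.6 CPM in cko at 6h, against 35.8 and 36.5 CPM in wt at 6h. Before culture they summed to 238 and 147 CPM in dbko and 45.5 and 41.2 CPM in cko, against 173 and 174 CPM in wt, so the dbko libraries lay on both sides of wt at 0h and above it at 6h. Where results in dbko are given without replicate 1 or replicate 2, both times were left out unless a single library is named. Markers of marginal zone B cells, another B cell subset, summed to 290 and 828 CPM in dbko before culture, against 1072 and 1089 CPM in wt. Of these sums Cr2, which is also among the B cell markers, made up 157 and 574 CPM in dbko and 745 and 751 CPM in wt. At 6h the marginal zone markers summed to 453 and 731 CPM in dbko, against 522 and 520 CPM in wt. The part of all these markers and of the replicate split in the values below was not tested.

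Myc protein and its partner Max bind the E-box CACGTG, and promoters holding it are shown because Myc is followed beside these genes. RefSeq promoters on GRCm38.p6, 250 bases before to 50 bases after the start, were at hand for 36 of the 42 members, and 6 had none (Rrs1, Fbl, Bop1, Gnl2, Rrp12 and Npm1). CACGTG, which reads the same on both strands, was found in 10 of the 36 (27.8%), against 2187 of 27025 genes with a promoter of that length (8.1%). The kappaB consensus, the motif bound by NF-kB, was searched on both strands and found in 3 of the 36 (8.3%), against 2581 of all (9.6%). The background was every gene with such a promoter, expressed here or not, and was not matched to the members by expression or base composition. A match is a run of letters and was not tested as a binding site. Below are 30 bases around each E-box, 5′ to 3′ on the gene's strand, with the motif in capitals and the position of its first base relative to the start site, which is base 1.
Nop2 (chr6:125131811-125131840, + strand, position -60): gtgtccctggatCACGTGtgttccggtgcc
Grwd1 (chr7:45830740-45830769, - strand, position 35): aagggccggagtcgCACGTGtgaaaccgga
Utp4 (chr8:106893643-106893672, + strand, position 16): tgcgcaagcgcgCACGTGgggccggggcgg
Ltv1 (chr10:13193092-13193121, - strand, position 29): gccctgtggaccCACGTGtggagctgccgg
Utp20 (chr10:88826765-88826794, - strand, position 38): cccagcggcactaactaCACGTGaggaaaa
Pes1 (chr11:3963965-3963994, + strand, position 3): ccctaggcagggCACGTGcgggaggaagta
Mybbp1a (chr11:72441347-72441376, + strand, position 41): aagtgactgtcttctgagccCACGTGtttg
Tsr1 (chr11:74898092-74898121, + strand, position 25): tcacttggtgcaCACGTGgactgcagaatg
Nle1 (chr11:82908355-82908384, - strand, position 24): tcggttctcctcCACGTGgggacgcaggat
Wdr43 (chr17:71616220-71616249, + strand, position 18): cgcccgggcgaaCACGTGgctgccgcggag
In 9 of these 10 promoters the E-box lay just downstream of the annotated start, and in Nop2 it lay upstream.

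In wt cells the pathway rose broadly by 6h. Summed over the 42 genes, CPM was 9355 and 9626 in wt at 6h, against 5818 and 5929 in wt at 0h, and 0.97 and 0.99% of gene counts fell on them at 6h against 0.53 and 0.54% at 0h. Of the 42 members 35 were higher at 6h and 0 lower at an adjusted p under 0.05, where 22.6% of the 12630 genes tested were higher and 23.5% lower (edgeR quasi-likelihood test with Benjamini-Hochberg adjustment over all genes tested, which sets every call below). At an unadjusted p under 0.05 the members' counts were 36 and 0, and with DESeq2 35 and 0. The median log2 fold change of the members was 0.73, beside 0.00 for all genes tested, and 40 of 42 were positive. With library totals in place of TMM the median of all genes moved to 0.18 and that of the members to 0.91, and calls over all genes moved from 2858 higher and 2972 lower to 3994 higher and 2224 lower. Leaving out any 1 of the 4 libraries left 24 to 29 members higher. Other features of the libraries moved with this rise. Of 9 B cell markers tested 7 were lower at 6h, summing to 6046 and 5942 CPM at 6h against 11626 and 11877 CPM at 0h, and of 9 macrophage markers tested 8 were lower. Reads tallied as falling on no counted feature made up 11.46 and 9.67% at 6h against 5.57 and 5.69% at 0h. Which features were counted is not given, so such reads can lie inside genes. Reads aligned to more than 1 place made up 38.77 and 41.53% at 6h against 49.85 and 49.38% at 0h. The part of these differences in the rise was not tested.

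**Figure D1:**
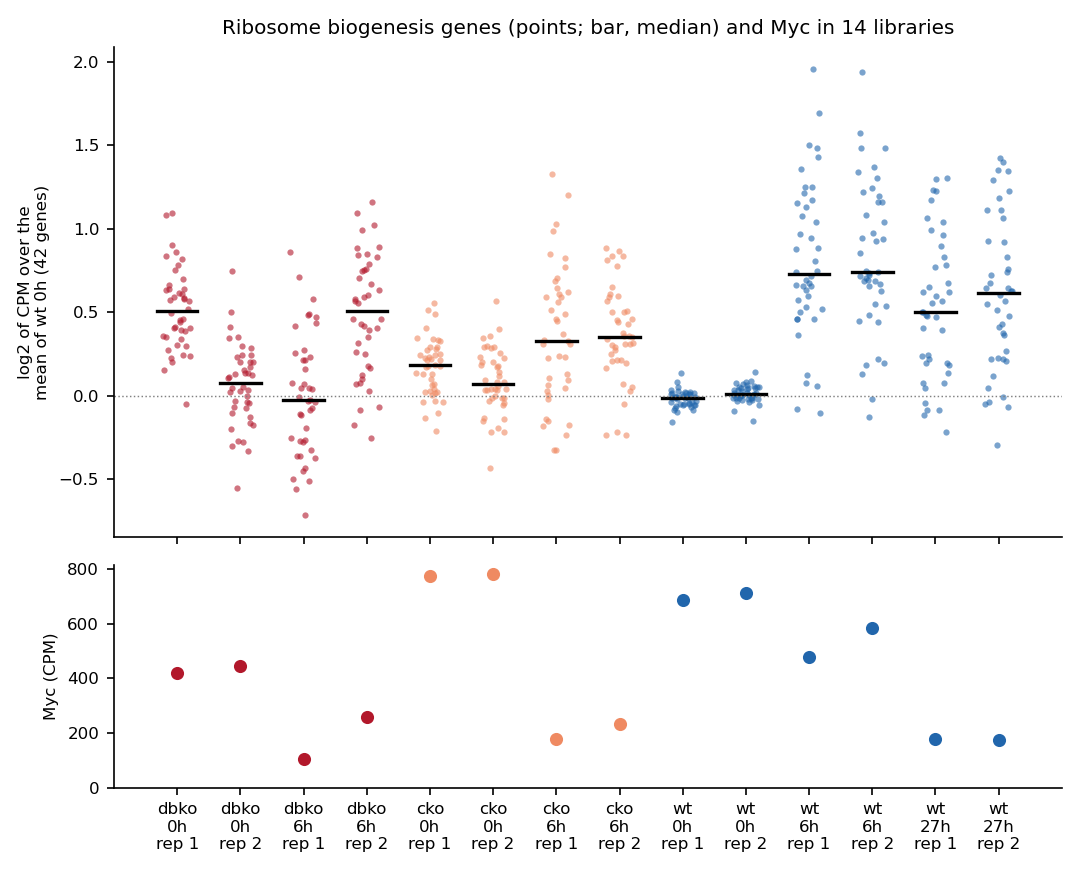
Log2 of each member's CPM over its mean in wt at 0h, in each of the 14 libraries (top, 1 point per gene, with the median of the 42 genes marked), and Myc CPM in the same libraries (bottom). The medians were 0.73 and 0.74 in wt at 6h, the highest of all libraries, while Myc was highest in cko at 0h, at 777 and 783 CPM.

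RNA polymerase I genes rose in 4 of 5 cases. Polr1b (ENSMUSG00000027395, chr2:129100995-129126594, + strand on GRCm38), a core subunit of the enzyme, had 171 and 169 CPM in wt at 6h, against 43.9 and 44.4 CPM in wt at 0h. It had the largest change of the 42 genes, a log2 fold change of 1.95 ± 0.22 (SE; edgeR adjusted p = 3.62e-05). Both 6h libraries were far above both 0h libraries, and the change passed the test with any library left out (adjusted p 0.000454 to 0.00104). Polr1a, the largest subunit, had 178 and 153 CPM at 6h against 89.6 and 79.4 CPM at 0h, a log2 fold change of 0.97 ± 0.15 (adjusted p = 0.000280, edgeR). Mybbp1a, a nucleolar regulator of rRNA synthesis, had 640 and 643 CPM at 6h against 285 and 291 CPM at 0h. Polr1c, a subunit that RNA polymerase III shares, was at 85.7 and 89.3 CPM in wt at 6h against 91.2 and 89.8 CPM at 0h and did not pass the test, with a log2 fold change of -0.05 ± 0.15 (edgeR adjusted p = 0.808) that was 0.13 with library totals.

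The 2 abundant nucleolar proteins had small changes. Ncl (ENSMUSG00000026234, chr1:86344719-86359400, - strand), nucleolin, had 1998 and 2113 CPM in wt at 6h, against 1540 and 1564 CPM at 0h, a log2 fold change of 0.41 ± 0.15 (edgeR adjusted p = 0.0448). That call was lost with any 1 of the 4 libraries left out (adjusted p 0.106 to 0.178). Npm1 (ENSMUSG00000057113, chr11:33152287-33163206, - strand), nucleophosmin, had 417 and 455 CPM at 6h against 398 and 402 CPM at 0h, with a log2 fold change of 0.13 ± 0.16 (edgeR adjusted p = 0.543). Its 6h and 0h libraries were separate but close. Per kilobase of exon, Ncl and Npm1 were still the most abundant members in wt at 6h, at 202 and 164 RPKM against a median of 38.7 RPKM over the 42, and Wdr12 was the lowest at 4.18 RPKM. Near copies of Npm1, Ncl and Fbl exist in the genome and reads with more than 1 place were outside the counts, so the levels of these 3 genes are uncertain.

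Of the snoRNP and modification genes 5 of 6 rose in wt at 6h. Nop2 (ENSMUSG00000038279, chr6:125131909-125144753, + strand), an rRNA cytosine methyltransferase with an E-box among the sequences above, had 158 and 156 CPM at 6h against 62.3 and 61.0 CPM at 0h, a log2 fold change of 1.35 ± 0.22 (edgeR adjusted p = 0.000461). Nolc1 (ENSMUSG00000015176, chr19:46075863-46085530, + strand), a snoRNP chaperone, had 296 and 310 CPM at 6h against 149 and 153 CPM at 0h (log2 fold change 1.00 ± 0.18, edgeR adjusted p = 0.000759). Nop56, a core protein of the box C/D snoRNPs that guide methylation, had 237 and 240 CPM at 6h, against 147 and 150 CPM at 0h. Dkc1, the pseudouridine synthase, had 166 and 176 CPM at 6h against 102 and 108 CPM at 0h (edgeR adjusted p = 0.0122), a call lost without wt 0h replicate 1 (0.0766), wt 0h replicate 2 (0.0503) or wt 6h replicate 2 (0.0627). Fbl, the methyltransferase of the box C/D particles, was counted at only 20.2 and 16.3 CPM at 6h against 14.3 and 13.7 CPM at 0h and did not pass the test (edgeR adjusted p = 0.328).

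The small subunit processome, the large particle that cuts and folds the rRNA of the small subunit, had 8 of 10 members higher, with a median log2 fold change of 0.91. Heatr1 (ENSMUSG00000050244, chr13:12395027-12440289, + strand), the counterpart of yeast Utp10, had 408 and 376 CPM in wt at 6h, against 131 and 122 CPM at 0h (log2 fold change 1.63 ± 0.18, edgeR adjusted p = 2.39e-05). Utp20, a very large scaffold protein, had 212 and 177 CPM at 6h against 82.2 and 67.6 CPM at 0h (1.38 ± 0.19 on the log2 scale, edgeR adjusted p = 0.000118). Utp4 (ENSMUSG00000041438, chr8:106893636-106923088, + strand), of the UtpA complex that binds the precursor early, had 132 and 143 CPM at 6h against 53.0 and 57.9 CPM at 0h (1.31 ± 0.16, edgeR adjusted p = 4.97e-05). In each of these 3 genes both 6h libraries were far above both 0h libraries. Utp15 (ENSMUSG00000041747, chr13:98246845-98263041, - strand), of the same complex as Utp4, had 129 and 136 CPM at 6h against 118 and 119 CPM at 0h and did not pass the test (0.16 ± 0.10 on the log2 scale, edgeR adjusted p = 0.208, and 0.0122 with library totals). Neither did Utp14a, at 94.5 and 98.3 CPM at 6h against 89.5 and 89.9 CPM at 0h. Rrp9, Wdr43, Wdr75, Nop14 and Noc4l were the other members that rose, and the call of Rrp9 was lost with 3 of the 4 libraries left out in turn (adjusted p up to 0.0752, wt 6h replicate 1 being the exception).

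Among the 4 genes of late small subunit assembly, Rrp12, Bysl and Tsr1 rose in wt at 6h. Rrp12 (ENSMUSG00000035049, chr19:41862851-41896173, - strand), known from yeast for export of pre-ribosomes from the nucleus, had 111 and 110 CPM at 6h against 49.7 and 48.8 CPM at 0h (log2 fold change 1.17 ± 0.20, edgeR adjusted p = 0.000586). The Tsr1 call, at a log2 fold change of 0.58 ± 0.21 (edgeR adjusted p = 0.0386), was lost with any library left out (0.0883 to 0.160), and that of Bysl without wt 0h replicate 1 (0.0630). Ltv1 (ENSMUSG00000019814, chr10:13178140-13193168, - strand), which leaves the particle late in maturation, had 84.4 and 83.1 CPM at 6h against 87.3 and 93.8 CPM at 0h, with the lowest change of all members (-0.11 ± 0.11, edgeR adjusted p = 0.416), which was 0.07 with library totals.

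Large subunit genes rose in 14 of 15 cases, with a median log2 fold change of 0.74. Rrp1b (ENSMUSG00000058392, chr17:32036100-32062865, + strand), a nucleolar protein related to yeast Rrp1, had 102 CPM in both wt libraries at 6h, against 36.4 and 36.6 CPM at 0h (1.48 ± 0.22 on the log2 scale, edgeR adjusted p = 0.000263). Noc3l (ENSMUSG00000024999, chr19:38788128-38819237, - strand), an early large subunit factor, had 88.7 and 91.8 CPM at 6h against 35.1 and 39.4 CPM at 0h (1.28 ± 0.17, edgeR adjusted p = 7.61e-05). Ppan, the mammalian counterpart of yeast Ssf1, had 176 and 183 CPM at 6h, against 63.4 and 67.6 CPM at 0h. These 3 genes had separate 6h and 0h libraries with tight pairs. Nle1 (ENSMUSG00000020692, chr11:82900768-82908411, - strand), a late nuclear maturation factor, had 75.4 and 80.4 CPM at 6h against 32.8 and 36.2 CPM at 0h (1.17 ± 0.24, edgeR adjusted p = 0.00191). Gnl3 (ENSMUSG00000042354, chr14:31012433-31019152, - strand), the nucleolar GTPase nucleostemin, had 280 and 304 CPM at 6h against 184 and 193 CPM at 0h (0.63 ± 0.15, edgeR adjusted p = 0.00521). Wdr12, Pes1 and Bop1, which form the PeBoW complex, all rose, and Wdr12 had the largest change of the 3, 0.93 ± 0.18 on the log2 scale (edgeR adjusted p = 0.000989), a call kept with any library left out. The Bop1 call was lost with any 1 of the 4 libraries left out (0.0512 to 0.0686), and the Pes1 call without wt 0h replicate 1 or 2 or wt 6h replicate 2 (up to 0.0840). Rrs1, which helps to bring the 5S RNA particle into the subunit, had 62.3 and 61.4 CPM at 6h against 43.5 and 47.0 CPM at 0h and did not pass the test (0.45 ± 0.20, edgeR adjusted p = 0.0843, and 0.0237 with library totals).

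**Figure D2:**
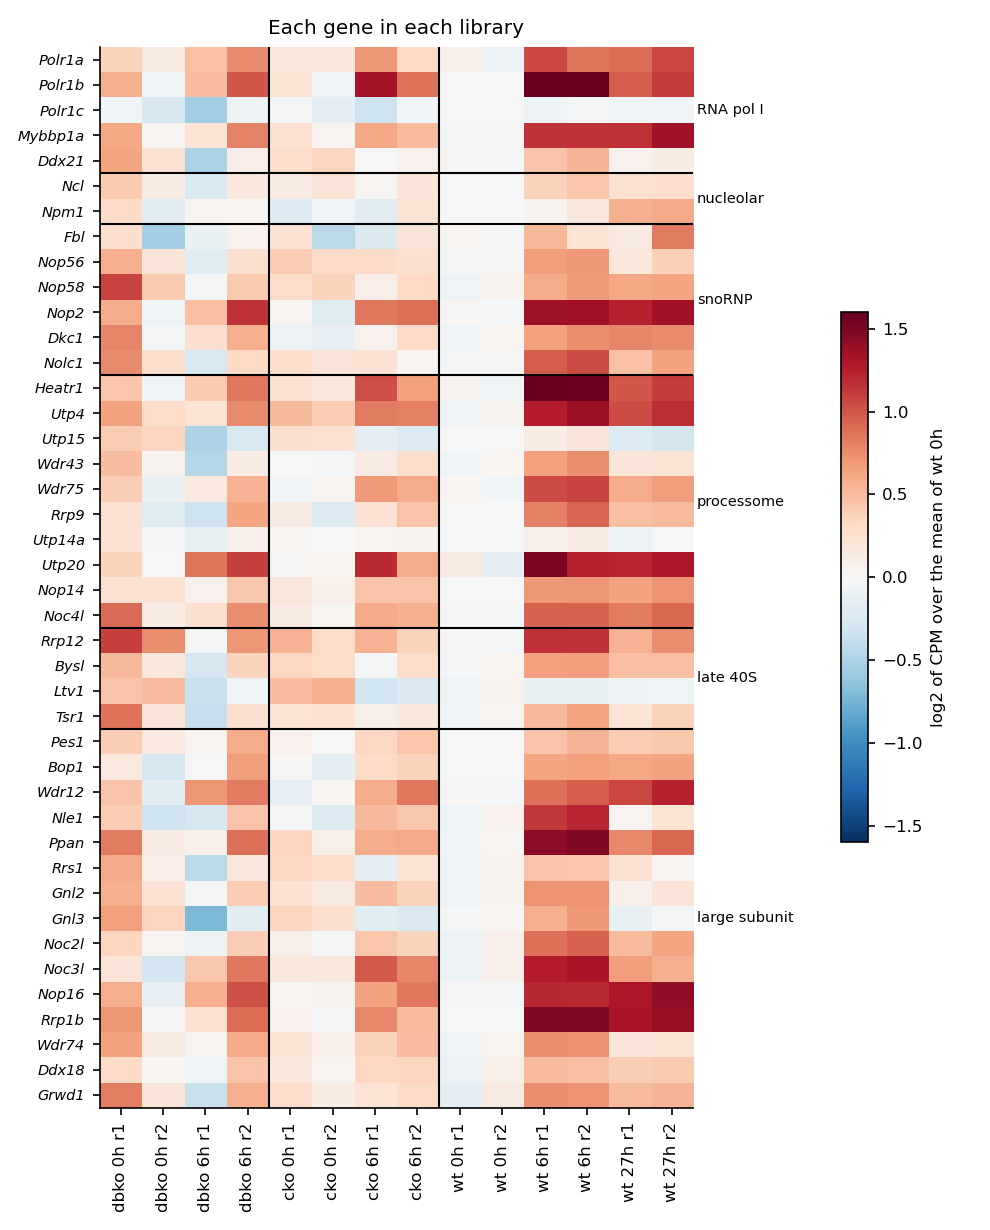
Log2 of CPM over the mean of wt at 0h for each of the 42 genes (rows, grouped by role) in each of the 14 libraries (columns, dbko left of cko left of wt). The wt 6h columns are high in nearly every row, and the replicate 1 and 2 columns of dbko differ from each other.

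Across the 42 genes the log2 change in wt at 6h had a Spearman's rho of -0.50 with the level per kilobase in wt at 0h and of 0.22 with exon length. Genes are not independent replicates, and the change shares its 0h libraries with the first measure.

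Myc did not rise with these genes in wt. Myc (ENSMUSG00000022346, chr15:61985391-61990374, + strand) had 687 and 715 CPM in wt before culture (0h), then 480 and 585 CPM after 6h, then 180 and 176 CPM after 27h. The level at 6h did not differ from 0h by the test, with a log2 fold change of -0.40 ± 0.30 (edgeR adjusted p = 0.312, with 0.0282 when no filter on low counts was used and 0.000597 when those 2 groups were fitted alone), and the level at 27h fell by 1.98 ± 0.32 relative to 0h (edgeR adjusted p = 0.000472). The summed level of the 42 genes was thus highest at 6h, when both Myc libraries were below both 0h libraries. Of 11 Myc network genes tested, which form pairs with Max or Mlx, 5 were lower and 1 higher in wt at 6h. Mxd4, a Max partner that represses E-box genes, had 53.0 and 48.6 CPM in wt at 6h against 157 and 154 CPM at 0h (-1.61 ± 0.20 on the log2 scale, edgeR adjusted p = 5.52e-05). Mxd1, of the same family, had 36.7 and 41.4 CPM at 6h, against 95.1 and 102 CPM at 0h. Mxi1, also of that family, went the other way, at 71.0 and 78.8 CPM at 6h against 17.9 and 19.3 CPM at 0h (2.01 ± 0.26, edgeR adjusted p = 0.000104). Max, the shared partner, did not pass the test (-0.20, edgeR adjusted p = 0.130).

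Other genes of the pathway followed the members in part. Of 42 other small subunit genes 25 were higher and 3 lower in wt at 6h (median log2 fold change 0.60), and of 46 other large subunit genes 23 were higher and 5 lower (median 0.40). The 23 were 15 without wt 0h replicate 1, and the 5 lower ones were 3 without wt 0h replicate 1 or wt 6h replicate 2, and 2 with wt 6h replicate 1 or wt 0h replicate 2 left out. Pdcd11, the counterpart of yeast Rrp5, needed for both subunits, had 279 and 263 CPM at 6h against 108 and 107 CPM at 0h (1.33 ± 0.14 on the log2 scale, edgeR adjusted p = 1.08e-05). Las1l, an endonuclease of the large subunit precursor, had 167 and 165 CPM at 6h, against 76.5 and 76.0 CPM at 0h. Dnttip2, Ddx52 and Ngdn were the 3 small subunit genes that were lower, and without wt 6h replicate 1 only 1 of these calls remained. Of 12 other snoRNP and snoRNP assembly genes 4 were higher and 1 lower (median 0.17), beside 22.6 and 23.5% of all genes tested.

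Other RNA polymerase I genes went both ways. Of 12 other RNA polymerase I genes 6 were higher and 5 lower in wt at 6h (3 higher without wt 0h replicate 1, and 3 lower without wt 6h replicate 1). Polr1h, a small subunit of the enzyme listed as Znrd1 in the annotation, had 41.0 and 40.1 CPM at 6h against 80.5 and 78.6 CPM at 0h (-0.97 ± 0.18 on the log2 scale, edgeR adjusted p = 0.000734), the opposite of Polr1b. Polr1f, listed as Twistnb, had 42.9 and 42.4 CPM at 6h against 68.7 and 67.4 CPM at 0h (-0.67 ± 0.12, edgeR adjusted p = 0.000797). Of 14 RNA polymerase III genes 3 were higher (6 with library totals) and 1 lower, beside 22.6 and 23.5% of all genes tested. Polr3g and Polr3gl are related subunits of which the enzyme carries either, and Polr3gl was the 1 that was lower. Polr3g had 40.7 and 35.1 CPM at 6h against 18.0 and 15.3 CPM at 0h (1.19 ± 0.16, edgeR adjusted p = 7.19e-05). Polr3gl had 8.41 and 10.2 CPM at 6h against 18.1 and 19.4 CPM at 0h (-1.01 ± 0.16, edgeR adjusted p = 0.000348). Of 13 RNA exosome genes, which trim rRNA ends, 7 were higher and 2 lower, led by the catalytic subunit Dis3 at 1.03 ± 0.15 (edgeR adjusted p = 0.000173). The 2 lower ones, Exosc3 and Mphosph6, became 1 without wt 0h replicate 1 or without wt 6h replicate 2.

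Genes of the ribosomal proteins themselves went the other way. Of 79 cytosolic ribosomal protein genes 47 were lower and 7 higher in wt at 6h, with a median log2 fold change of -0.53, and with library totals as the scale the counts were 42 lower and 9 higher. Rpl39 had 103 and 115 CPM at 6h against 207 and 209 CPM at 0h (-0.93 ± 0.13 on the log2 scale, edgeR adjusted p = 0.000112), and Rps20 had 277 and 310 CPM at 6h against 560 and 536 CPM at 0h. Many ribosomal protein genes have near copies in the genome, so their counts are uncertain.

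**Figure D3:**
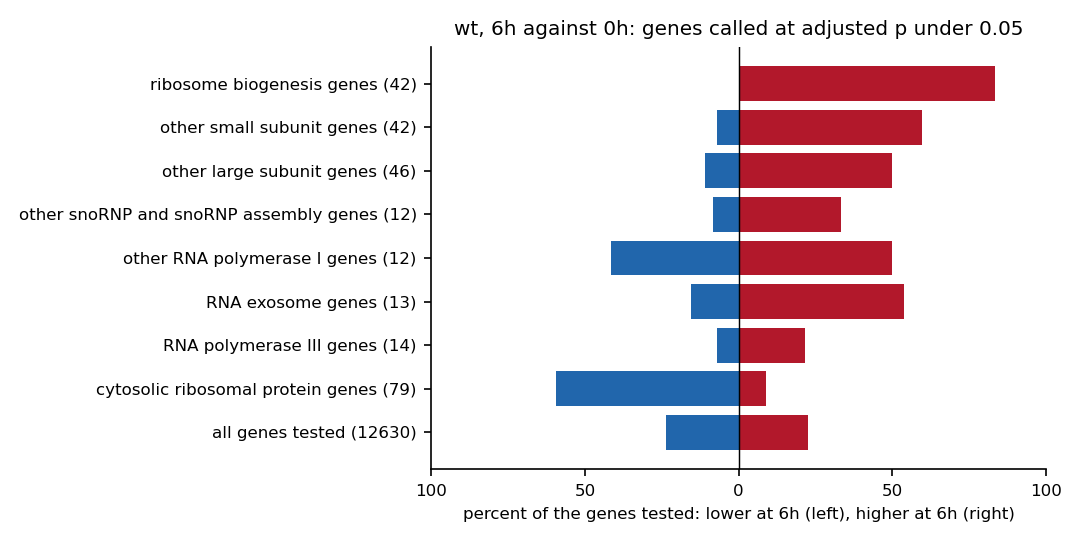
Percent of tested genes called higher or lower in wt at 6h against 0h, for the members, for other lists of the pathway and for all genes tested. The 42 members had 35 higher and 0 lower, while the 79 ribosomal protein genes had 7 higher and 47 lower.

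Between 6h and 27h most members did not pass the test in wt cells. Of 42 members 10 were lower and 1 higher at 27h than at 6h (22 and 2 when only these groups were fitted), where 18.2% of genes tested were lower and 15.9% higher, with a median log2 fold change of -0.19 beside 0.01 for all genes. With library totals the lower members were 6, the median of all genes moved to 0.13, and the calls over all genes moved from 2010 higher and 2299 lower to 2670 higher and 1695 lower. The lower members fell to 3 without wt 27h replicate 1 or wt 6h replicate 2, to 4 without wt 27h replicate 2 and to 5 without wt 6h replicate 1, and the 1 higher member, Npm1, was lost in all 4 cases (adjusted p 0.103 to 0.199). The count of lower members was near the background of all genes, and the single genes below are given as a description.

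Large changes back towards the 0h level were seen in a few genes. Nle1 had 35.7 and 40.3 CPM at 27h, against 75.4 and 80.4 CPM at 6h (-1.03 ± 0.24 on the log2 scale, edgeR adjusted p = 0.00626, and 0.0599 without wt 27h replicate 1). Polr1b had 86.2 and 95.5 CPM at 27h, against 171 and 169 CPM at 6h (-0.91 ± 0.21, edgeR adjusted p = 0.00698, and 0.0635 without wt 27h replicate 1). Gnl3 had 174 and 184 CPM at 27h, against 280 and 304 CPM at 6h (-0.71 ± 0.15, edgeR adjusted p = 0.00428), a call kept with any library left out. In all 3 genes both 27h libraries lay below both 6h libraries.

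Other members had 27h levels at or above their 6h levels. Npm1 had 594 and 609 CPM at 27h, against 417 and 455 CPM at 6h (0.46 ± 0.16, edgeR adjusted p = 0.0401). Wdr12 had 55.1 and 61.5 CPM at 27h, against 48.4 and 51.6 CPM at 6h, and Nop16, a nucleolar protein of the large subunit pathway, had 76.9 and 83.9 CPM at 27h, against 72.4 and 71.6 CPM at 6h, neither past the test. Relative to 0h, 24 of 42 members were higher at 27h and 0 lower (23.0 and 24.6% of genes tested). The counts were 25 and 1 at an unadjusted p under 0.05 and 22 and 0 with DESeq2. Of these 24 members, 23 were also among the 35 higher at 6h, a comparison with the same 0h libraries. With library totals the median of all genes in that comparison moved to 0.30, and calls over all genes moved from 2909 higher and 3103 lower to 4808 higher and 1916 lower. The count was 13 without wt 0h replicate 1. Nop16 was 1.37 ± 0.20 above 0h on the log2 scale (edgeR adjusted p = 0.000143) and Nop2 1.29 ± 0.22 (edgeR adjusted p = 0.000568), at 145 and 157 CPM at 27h.

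**Figure D4:**
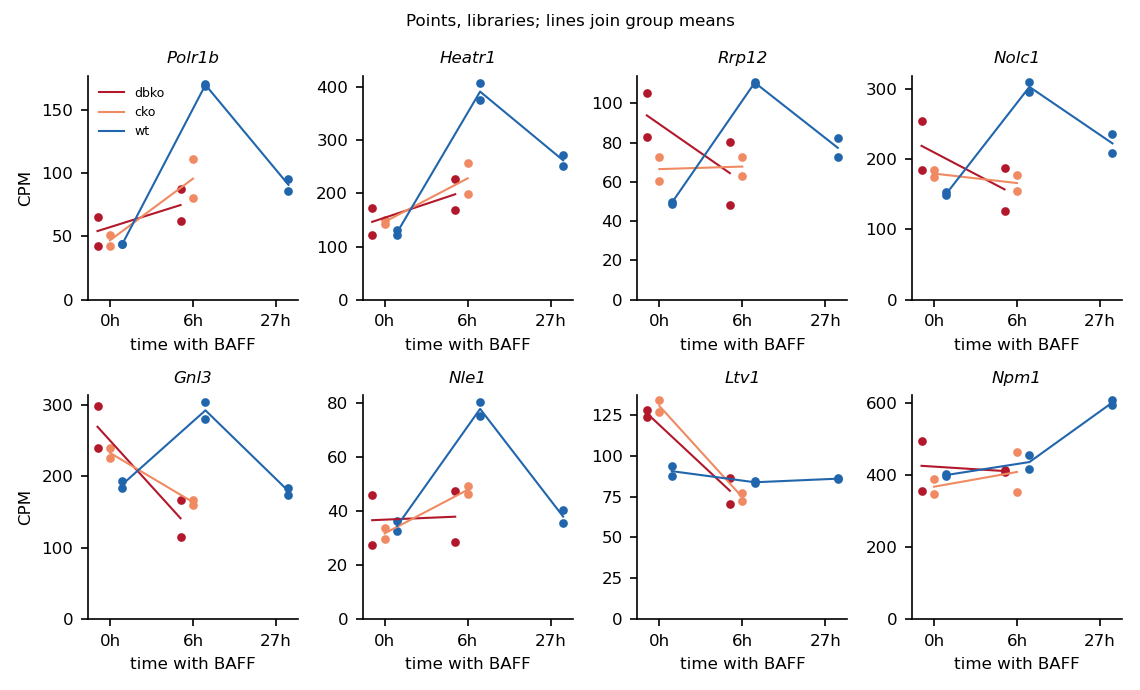
CPM of 8 members by time with BAFF (0h, 6h and 27h drawn evenly spaced), with a point per library and lines joining group means for dbko, cko and wt. Polr1b, Heatr1, Nolc1 and Nle1 peak in wt at 6h, Npm1 is highest in wt at 27h, and Ltv1 passed the test as lower at 6h in dbko and cko and not in wt.

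Before culture, 38 of 42 members had a positive log2 fold change in dbko against wt and 32 in cko against wt, most of them not past the test. In cko at 0h 1 member was higher than in wt and 0 lower, where 0.918% of genes tested were higher and 0.578% lower. At an unadjusted p under 0.05 the members' counts were 4 and 0, and DESeq2 gave 1 and 0, with 229 genes higher and 83 lower over all genes against 116 and 73 by the edgeR test. That member was Ltv1, at 127 and 134 CPM in cko against 87.3 and 93.8 CPM in wt (0.53 ± 0.11 on the log2 scale, edgeR adjusted p = 0.0282), and its call was lost with any 1 of the 4 libraries left out (0.151 to 0.338). In dbko at 0h 5 members were higher than in wt and 0 lower (7.10 and 4.55% of genes tested), 14 and 0 at an unadjusted p under 0.05 and 5 and 0 with DESeq2. These were Nop58, Utp15, Rrp12, Ltv1 and Gnl3 (adjusted p = 0.0499, and 0.0503 with a replicate block). The count rested on single libraries: 1 member without dbko 0h replicate 1, 20 without dbko 0h replicate 2, 0 without wt 0h replicate 1 or 2, and 1 when only the compared groups were fitted. Summed CPM of the 42 was 8420 in dbko 0h replicate 1 and 6378 in replicate 2, against 5818 and 5929 in wt.

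In cko cells fewer members passed the test at 6h. Summed CPM was 6956 and 7132 in cko at 6h, against 6583 and 6524 in cko at 0h. Of 42 members 10 were higher and 3 lower (21.8 and 20.1% of genes tested), with a median log2 fold change of 0.30 beside 0.05 for all genes. With library totals the counts were 21 and 1, the median of all genes moved to 0.27, and calls over all genes moved from 2758 higher and 2539 lower to 4371 higher and 1773 lower. The count of higher members was near the background of all genes. Leaving out cko 0h replicate 1 left 6 members higher and leaving out cko 0h replicate 2 left 5, while fitting only these groups gave 18.

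The 10 members that rose in cko were all among the 35 of 42 that rose in wt. With so many higher in wt, most of any 10 members would fall among them. Polr1b had 111 and 80.5 CPM in cko at 6h, against 51.3 and 42.6 CPM at 0h (1.03 ± 0.22 on the log2 scale, edgeR adjusted p = 0.00268). Utp20 had 172 and 113 CPM at 6h against 76.2 and 76.7 CPM at 0h (0.90 ± 0.19, edgeR adjusted p = 0.00245), and Noc3l had a log2 fold change of 0.71 (edgeR adjusted p = 0.00447). In these 3 genes both 6h libraries were above both 0h libraries.

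The 3 members that fell in cko were Gnl3, Ltv1 and Utp15. Ltv1 had 72.3 and 76.9 CPM at 6h, against 127 and 134 CPM at 0h (-0.81 ± 0.11 on the log2 scale, edgeR adjusted p = 9.12e-05). Utp15 had 107 and 102 CPM at 6h against 141 and 139 CPM at 0h (-0.42 ± 0.10, edgeR adjusted p = 0.00488, and 0.114 with library totals). Gnl3 had 167 and 160 CPM at 6h against 240 and 225 CPM at 0h (-0.51 ± 0.16, edgeR adjusted p = 0.0192), a call lost with any 1 of the 4 libraries left out (0.0564 to 0.104) and with library totals (0.155).

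In dbko cells the 6h libraries gave no common direction. Of 42 members 4 were higher and 7 lower at 6h than at 0h (19.3 and 20.3% of genes tested), a balance that turned round to 9 higher and 3 lower with library totals, when the median of all genes moved to 0.23 and calls over all genes moved from 2442 higher and 2562 lower to 3939 higher and 1815 lower. The median log2 fold change was -0.01 beside 0.03 for all genes. The replicates went opposite ways: the median log2 ratio of 6h over 0h was -0.51 between the replicate 1 libraries, with 4 of 42 genes above 0, and 0.44 between the replicate 2 libraries, with 37 above 0. Without dbko replicate 1 at both times 22 members were higher and 3 lower, and without dbko replicate 2 at both times 0 were higher and 29 lower. Leaving out a single dbko library gave 10 higher and 3 lower without replicate 1 of either time, 1 higher and 11 lower without 0h replicate 2, and 1 higher and 16 lower without 6h replicate 2. Fitting only these groups gave 0 higher and 1 lower. Summed, erythroid and macrophage markers were higher in replicate 1 at both times and marginal zone B cell markers lower. Single markers went the other way, among them Hbb-bt at both times, Adgre1 and Ly6c2 at 0h, and S1pr3 and Cd1d1 at 6h. The part of these markers in this split was not tested.

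Calls of 3 lower members in dbko were kept with any 1 library left out. Ltv1 had 70.6 and 86.5 CPM in dbko at 6h, against 124 and 128 CPM at 0h (-0.68 ± 0.11 on the log2 scale, edgeR adjusted p = 0.000338). Utp15 had 84.1 and 99.5 CPM at 6h against 157 and 151 CPM at 0h (-0.75 ± 0.10, edgeR adjusted p = 0.000108). Gnl3 had 115 and 167 CPM at 6h against 298 and 240 CPM at 0h (-0.93 ± 0.16, edgeR adjusted p = 0.000499). Both 6h libraries lay below both 0h libraries in each of them, and the same 3 members fell in cko. With dbko replicate 1 and with dbko replicate 2 left out at both times the log2 fold changes were -0.54 and -1.37 for Gnl3, -0.57 and -0.81 for Ltv1, and -0.61 and -0.90 for Utp15. When only these groups were fitted Utp15 alone passed the test, with adjusted p of 0.0579 for Gnl3 and 0.0586 for Ltv1. The 4 that rose were Noc3l, Wdr12, Nop16 and Utp20, all of which also rose in cko and in wt, where 10 and 35 of the 42 members rose. Utp20 had 136 and 160 CPM in dbko at 6h against 95.9 and 75.0 CPM at 0h (0.79 ± 0.19, edgeR adjusted p = 0.00525), the only one of the 4 whose call was kept with any 1 library left out, though without dbko replicate 2 at both times its change was 0.50 (adjusted p 0.111). Noc3l, Wdr12 and Nop16 lost theirs without dbko 0h replicate 2 or 6h replicate 2, with adjusted p up to 0.0540 for Noc3l, 0.119 for Wdr12 and 0.298 for Nop16. Rrp12, Nop58, Tsr1 and Ddx21, an RNA helicase of rRNA transcription and processing, were the other members that were lower, and all 4 calls were lost without dbko 0h replicate 1 or 6h replicate 1, with adjusted p up to 0.290 for Rrp12 (0.0525 with a replicate block), 0.347 for Nop58, 0.382 for Tsr1 and 0.102 for Ddx21.

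**Figure D5:**
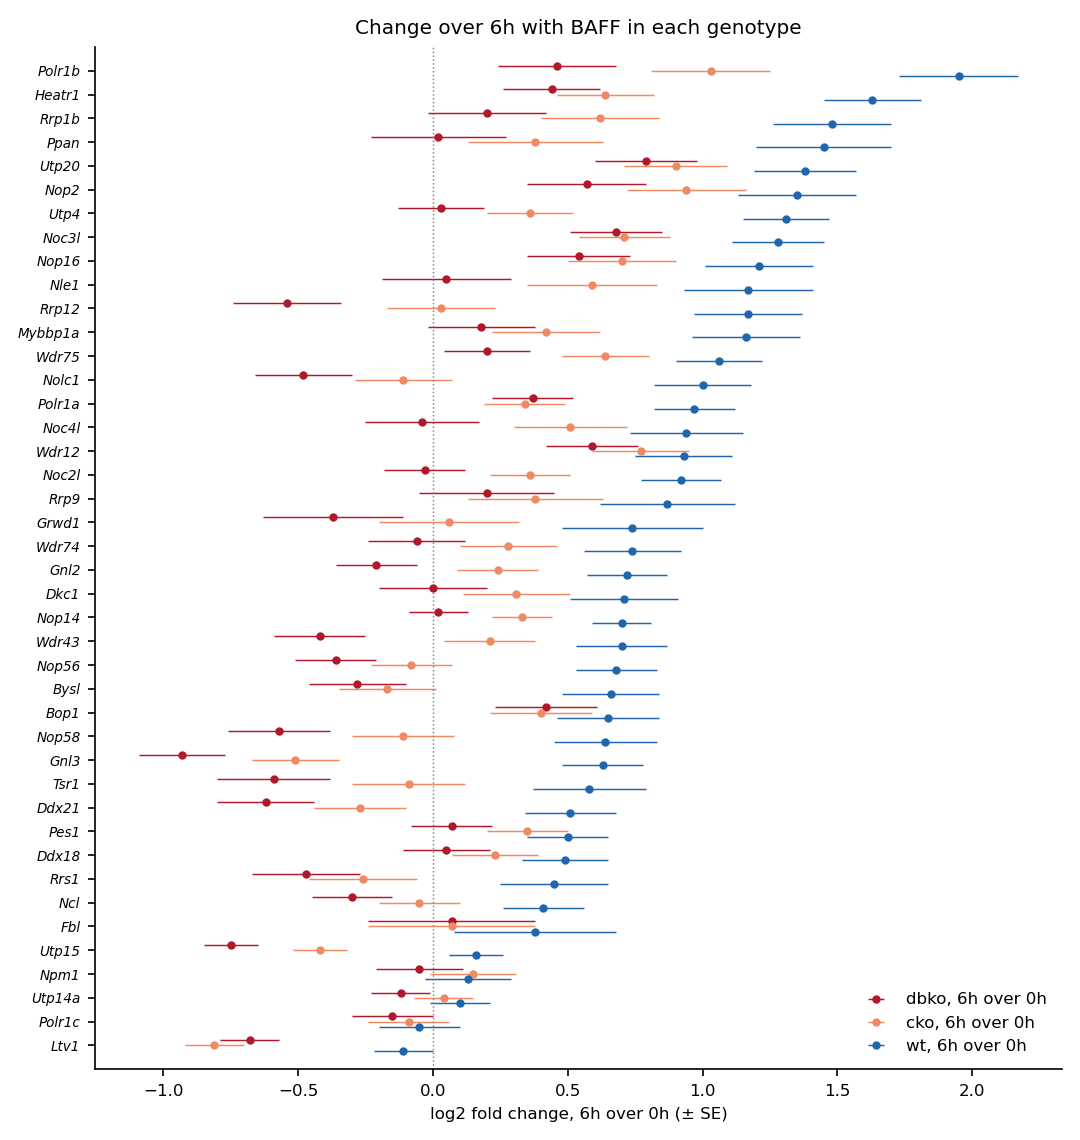
Log2 fold change of 6h over 0h with its SE for each of the 42 genes in dbko, cko and wt, sorted by the change in wt. The changes ran from -0.93 to 0.79 in dbko, from -0.81 to 1.03 in cko and from -0.11 to 1.95 in wt, and the dbko values lay below the wt values in all 42 genes.

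The difference of the 6h responses was tested directly. Between dbko and wt it was negative in all 42 members, with a median of -0.92 on the log2 scale beside 0.05 for all genes, and 25 members had a smaller response in dbko and 0 a larger one, where 6.94% of genes tested were smaller and 6.90% larger. A smaller response, here and below, is a lower log2 fold change than in wt, and it can be a fall. A larger response is a higher one. Ltv1 and Utp15, for example, fell by 6h in dbko and did not pass the test in wt. At an unadjusted p under 0.05 the smaller responses were 33, and with DESeq2 27. The count was 18 without dbko replicate 1 at both times and 40 without dbko replicate 2 at both times. Of the wt libraries, leaving out 6h replicate 2 gave 8, 0h replicate 1 gave 9, 0h replicate 2 gave 11 and 6h replicate 1 gave 13. Of the dbko libraries, leaving out 0h replicate 1 gave 15 and the other 3 gave 17 to 35. Fitting only the 4 groups compared gave 6. Of 9 macrophage markers tested 7 had a larger response in dbko than in wt and 0 a smaller one, and of 9 erythroid markers 0 passed the test in either direction. The part of the macrophage markers in these values was not tested.

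By role, the smaller responses in dbko were 3 of 5 RNA polymerase I genes, 1 of 2 nucleolar proteins, 3 of 6 snoRNP genes, 7 of 10 processome genes, 4 of 4 late small subunit genes and 7 of 15 large subunit genes. Rrp12 had the largest difference. It had 48.4 and 80.4 CPM in dbko at 6h beside 105 and 82.6 CPM in its 0h libraries, against 111 and 110 CPM in wt at 6h beside 49.7 and 48.8 CPM in its 0h libraries. The response of Rrp12 differed by -1.71 ± 0.28 on the log2 scale (edgeR adjusted p = 0.00335), and it passed the test with any 1 of the 8 libraries left out (6.12e-05 to 0.0227). It was -1.22 without dbko replicate 1 at both times and -2.29 without dbko replicate 2.

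Gnl3 was the member with the smallest p in that test. Its response differed by -1.56 ± 0.22 between dbko and wt (edgeR adjusted p = 0.00121), higher at 6h in both wt pairs of libraries and lower at 6h in both dbko pairs. Utp15 differed by -0.91 ± 0.14 (edgeR adjusted p = 0.00216). Neither call was lost with any 1 of the 8 libraries left out. Without dbko replicate 1 at both times the differences were -1.17 for Gnl3 and -0.78 for Utp15, and without dbko replicate 2 the one of Utp15 was -1.07 and that of Gnl3 larger in size than with all libraries.

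Nolc1 had 126 and 188 CPM in dbko at 6h beside 254 and 184 CPM in its 0h libraries, against 296 and 310 CPM in wt at 6h beside 149 and 153 CPM in its 0h libraries. Its response differed by -1.48 ± 0.26 (edgeR adjusted p = 0.00382). Utp4 had 64.4 and 93.4 CPM in dbko at 6h beside 86.5 and 68.1 CPM in its 0h libraries, and its response differed by -1.28 ± 0.23 from wt (edgeR adjusted p = 0.00426). For Utp4 the dbko replicates moved in opposite directions, while Nolc1 fell in replicate 1 and hardly changed in replicate 2. Both calls held with any 1 of the 8 libraries left out. Without dbko replicate 1 and without dbko replicate 2 the differences were -0.99 and -2.02 for Nolc1, and -0.87 and -1.74 for Utp4.

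Nop56 had 130 and 177 CPM in dbko at 6h beside 222 and 171 CPM in its 0h libraries, and its response differed by -1.04 ± 0.22 from wt (edgeR adjusted p = 0.00928). Polr1b had 62.0 and 87.7 CPM in dbko at 6h beside 65.7 and 42.8 CPM in its 0h libraries, and its response differed by -1.48 ± 0.31 (edgeR adjusted p = 0.0102). Ltv1 differed by -0.57 ± 0.15 (edgeR adjusted p = 0.0279), a call lost without dbko 6h replicate 1 or any of the 4 wt libraries. The calls of Nop56 and Polr1b held with any 1 of the 8 libraries left out, though fitting only the 4 groups compared gave 0.0537 for Nop56. Without dbko replicate 1 and without dbko replicate 2 the differences were -0.64 and -1.45 for Nop56, -0.92 and -2.03 for Polr1b, and -0.47 and -0.70 for Ltv1.

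Between cko and wt the responses differed in the same direction, with fewer calls when all 7 groups were fitted. The difference was negative in 41 of 42 members, with a median of -0.56 on the log2 scale beside 0.05 for all genes, and 2 were called smaller in cko and 0 larger (1.15 and 0.554% of genes tested). At an unadjusted p under 0.05 there were 22 smaller ones, and with DESeq2 9. Over all genes the calls were 70 higher and 145 lower, 107 and 124 with library totals and 50 and 177 with DESeq2 size factors. The 2 members were Gnl3, with a difference of -1.14 ± 0.22 (edgeR adjusted p = 0.0259), and Ltv1, with -0.70 ± 0.15 (edgeR adjusted p = 0.0434). Both were lost with any 1 of the 8 libraries left out, save Gnl3 without cko 6h replicate 1, with adjusted p up to 0.147 for Gnl3 and 0.214 for Ltv1. Fitting only the 4 groups compared gave 30 smaller responses, more than the same kind of fit gave for dbko. Which knockout had more calls thus depended on the fit, and calls over all genes also rose in that cko fit. Gnl3 and Ltv1 themselves fell by 6h in cko, while in wt Gnl3 rose and Ltv1 did not pass the test. Neither dbko nor cko shares libraries with the other, but both were set against the same wt libraries, so their differences from wt are not independent.

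At 6h itself all 42 members were lower on average in dbko than in wt. Summed CPM was 5494 and 7510 in dbko and 6956 and 7132 in cko, against 9355 and 9626 in wt. Of 42 members 20 were called lower in dbko and 0 higher (11.5 and 15.2% of genes tested), with a median log2 fold change of -0.54 beside 0.05 for all genes, and at an unadjusted p under 0.05 there were 28. Both dbko libraries lay below both wt libraries in 38 of 42 members, against 29.4% of genes tested. With library totals 18 members were lower, the median of all genes moved to 0.14, and calls over all genes moved from 1920 higher and 1450 lower to 2342 higher and 1116 lower. The count was 10 without dbko 6h replicate 1, also 10 when wt 6h replicate 1 was left out, 9 with wt 6h replicate 2 left out, and 35 with dbko 6h replicate 2 left out. Fitting only these groups gave 5, fewer than the same kind of fit gave for cko against wt. All 9 erythroid and all 9 macrophage markers tested were higher in dbko than in wt at 6h, and their part in these values was not tested.

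Polr1b had 62.0 and 87.7 CPM in dbko at 6h, against 171 and 169 CPM in wt at 6h (-1.18 ± 0.21 on the log2 scale, edgeR adjusted p = 0.00234). Gnl3 had 115 and 167 CPM in dbko against 280 and 304 CPM in wt (-1.05 ± 0.16, edgeR adjusted p = 0.000593). Heatr1 had 169 and 228 CPM in dbko, against 408 and 376 CPM in wt (-0.98 ± 0.18, edgeR adjusted p = 0.00226). In these 3 genes every dbko library was far below every wt library, and the calls held with any 1 of the 4 libraries left out. Without dbko replicate 1 and without dbko replicate 2 the log2 fold changes were -0.97 and -1.46 for Polr1b, -0.83 and -1.34 for Gnl3, and -0.80 and -1.21 for Heatr1. Nle1 had 28.5 and 47.4 CPM in dbko against 75.4 and 80.4 CPM in wt (-1.04 ± 0.24, edgeR adjusted p = 0.00815, 0.0558 without wt 6h replicate 2 and 0.0569 when only these groups were fitted), and -0.73 and -1.45 without dbko replicate 1 and without dbko replicate 2. At the other end, Npm1 had 413 and 409 CPM in dbko against 417 and 455 CPM in wt. Ltv1 had 70.6 and 86.5 CPM in dbko against 84.4 and 83.1 CPM in wt, and Utp14a had 82.7 and 94.7 CPM against 94.5 and 98.3 CPM. None of these last 3 passed the test, and the groups overlapped in Ltv1 and Utp14a.

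In cko at 6h all 42 members were also lower on average than in wt, with a median log2 fold change of -0.45 beside 0.02 for all genes. The calls were 3 lower and 0 higher (1.96 and 1.58% of genes tested), 24 lower at an unadjusted p under 0.05 and 8 with DESeq2, and both cko libraries lay below both wt libraries in 40 of 42 members, against 24.1% of genes tested. Gnl3 had 167 and 160 CPM in cko against 280 and 304 CPM in wt (-0.83 ± 0.16, edgeR adjusted p = 0.0115). Nolc1 had 178 and 154 CPM in cko against 296 and 310 CPM in wt (-0.87 ± 0.18, edgeR adjusted p = 0.0202), and Heatr1 had 258 and 199 CPM in cko against 408 and 376 CPM in wt (-0.78 ± 0.18, edgeR adjusted p = 0.0329). All 3 calls were lost without cko 6h replicate 2 or either wt 6h library, with adjusted p up to 0.130 for Gnl3, 0.191 for Nolc1 and 0.263 for Heatr1. Without cko 6h replicate 1 there were 5 lower members, and fitting only these groups gave 16.

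Set against each other at 6h, dbko and cko had 0 members called in either direction (4.66% of genes tested were lower in dbko and 8.77% higher), 0 at an unadjusted p under 0.05 and 0 with DESeq2. The log2 fold changes ran from -0.36 to 0.24, with SE of 0.10 to 0.30, and their median was -0.09. Over all genes the calls were 1108 higher and 588 lower, and 1307 and 407 with library totals. The dbko replicates decided this outcome: 12 members were lower in dbko without dbko 6h replicate 2 and 32 without replicate 2 at both times, and 2 were higher without replicate 1 at both times. Across the 42 genes the 6h changes in dbko and in cko, which share no library, had a Pearson's r of 0.90 and a Spearman's rho of 0.92. The changes in cko and wt had an r of 0.77 and those in dbko and wt an r of 0.58. Genes are not independent replicates, and these values are a description.

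Myc went down by 6h in both knockouts. It had 104 and 257 CPM in dbko at 6h against 421 and 446 CPM at 0h (-1.26 ± 0.31 on the log2 scale, edgeR adjusted p = 0.00791), and 179 and 232 CPM in cko at 6h against 777 and 783 CPM at 0h (-1.92 ± 0.31, edgeR adjusted p = 0.000665). Both calls were kept with any 1 of the 4 libraries left out, but the dbko call was lost when only these groups were fitted (0.124). The change in dbko was -0.80 without dbko replicate 1 and -2.02 without dbko replicate 2. At 6h Myc was lower in dbko than in wt, by -1.56 ± 0.31 (edgeR adjusted p = 0.00485, and 0.0760 when only these groups were fitted), or -1.07 and -2.36 without dbko replicate 1 and without dbko replicate 2. It was also lower in cko than in wt, by -1.37 ± 0.31 (edgeR adjusted p = 0.0370), though the cko call was lost with any library left out (0.118 to 0.254). The difference of the 6h responses did not pass the test for Myc, at -0.87 ± 0.43 for dbko (edgeR adjusted p = 0.211, with -0.41 without dbko replicate 1 and -1.62 without dbko replicate 2 at both times) and -1.53 ± 0.43 for cko (edgeR adjusted p = 0.112). Both came past the threshold under other settings. The cko difference did with DESeq2 (adjusted p = 0.00500), and in edgeR with a replicate block within each genotype (0.0190), with no filter on low counts (3.00e-11) and with only the 4 groups fitted (0.000483). The dbko difference did in edgeR with that block (0.0419) and with no filter on low counts (0.000317), and it was -1.66 without dbko 6h replicate 2. At 0h Myc in cko did not differ from wt by the test (0.15 ± 0.30, edgeR adjusted p = 0.894, and 0.0421 when only these groups were fitted). The same held for dbko (-0.69 ± 0.31, edgeR adjusted p = 0.164, and 6.78e-05 with no filter on low counts). The dbko value was -0.66 without dbko replicate 1 at both times and -0.74 without dbko replicate 2 at both times. Set against cko at 6h, Myc in dbko had a log2 fold change of -0.19 ± 0.31 (edgeR adjusted p = 0.742) that rested on single libraries, at 0.32 without dbko 6h replicate 1 and -0.98 without dbko 6h replicate 2.

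Dbko replicate 1 at 6h, with the lowest Myc of all libraries at 104 CPM, also had the lowest summed CPM of the 42 genes, 5494. That rank depended on TMM scaling. As a share of gene counts the 42 genes made up 0.61% there, above 0.53 and 0.54% in wt at 0h and 0.58% in both cko 0h libraries. Among the wt libraries the order was different, with Myc highest at 0h and the 42 genes lowest there. The Max partner Mxd4 did not fall in dbko as in wt. It had 128 and 114 CPM in dbko at 6h beside 66.3 and 114 CPM in its 0h libraries, against 53.0 and 48.6 CPM in wt at 6h beside 157 and 154 CPM in its 0h libraries, a difference of responses of 2.04 ± 0.28 (edgeR adjusted p = 0.00114, and up to 0.0114 with a library left out) that was 1.61 and 2.57 without dbko replicate 1 and without dbko replicate 2. Mxi1 had 17.7 and 39.1 CPM in dbko at 6h against 26.7 and 25.0 CPM at 0h, and 75.6 and 84.2 CPM in cko at 6h against 17.8 and 17.9 CPM at 0h. Its response differed between dbko and wt by -1.87 ± 0.37 (edgeR adjusted p = 0.00822, up to 0.0437 with a library left out and 0.0527 when only the 4 groups were fitted), or -1.38 and -2.60 without dbko replicate 1 and without dbko replicate 2.

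Other genes of subunit assembly had smaller responses in dbko as well. Of 42 other small subunit genes 15 had a smaller 6h response in dbko than in wt and 0 a larger one, and of 46 other large subunit genes 20 had a smaller one and 0 a larger one, where 6.94% of genes tested were smaller and 6.90% larger. In the other lists the calls were 2 smaller and 1 larger of 12 other RNA polymerase I genes, 1 and 1 of 12 other snoRNP genes, 3 and 0 of 13 exosome genes, 1 and 0 of 14 RNA polymerase III genes and 8 and 0 of 79 ribosomal protein genes. For the small and large subunit lists, with wt libraries left out in turn, the smaller responses numbered 5 and 6 (0h replicate 1), 6 and 10 (6h replicate 1), 5 and 8 (0h replicate 2) and 5 and 6 (6h replicate 2). With dbko 6h replicate 2 left out they were 25 and 32, and the small subunit count was 6 with dbko 0h replicate 1 left out and 9 with dbko 6h replicate 1 left out. They were 7 and 14 without dbko replicate 1 at both times, and without dbko replicate 2 at both times 32 and 37, and fitting only the 4 groups compared gave 4 and 6. Pdcd11 had 123 and 150 CPM in dbko at 6h against 127 and 121 CPM at 0h, and its response differed from wt by -1.19 in dbko (edgeR adjusted p = 0.00240, up to 0.0189 with a library left out, with -1.04 and -1.38 without dbko replicate 1 and without dbko replicate 2) and by -0.93 in cko (edgeR adjusted p = 0.0330). The cko call was lost with 7 of the 8 libraries left out in turn (up to 0.162), cko 6h replicate 1 being the exception. Polr1f, lower at 6h in wt, was also lower in dbko, at 30.3 and 32.3 CPM at 6h against 81.7 and 76.6 CPM at 0h.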

How the data were processed

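RNA from 14 libraries was sequenced by the authors, and the deposited files hold raw counts of reads per Ensembl gene ID, 1 table per library. The submitters' processing notes name CASAVA 1.8.2; the aligner, counter, build and strand setting are not given in the sources read. Per the deposited tallies, 38.77 to 49.85% of reads aligned to more than 1 place and were not counted, which lowers genes with near copies. Symbols and positions came from GENCODE M21 on GRCm38, possibly not the authors' build (37607 of 39179 IDs matched, 99.54% of counts).

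TMM scaling and a quasi-likelihood fit were run in edgeR 4.0.16 (R 4.3.3). The fit gave each of the 7 groups its mean and took in all 14 libraries and the 12630 genes passing filterByExpr. Genes were called at a Benjamini-Hochberg adjusted p under 0.05, two-sided. A prior count of 2 applied to the log2 CPM behind the correlations of same-numbered libraries given below, not to this fit. Alternatives, including DESeq2 1.42.0, are in the closing section. Tables and figures used Python 3.11.15 and Matplotlib 3.10.9. RPKM used summed exon length in GENCODE M21.

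Members and lists were chosen with earlier results of these data known. Values per library are given for the members with the smallest and largest p of each role in wt at 6h against 0h, the 3 largest and 3 smallest changes in 3 comparisons, the members called in a difference of 6h responses (6 smallest p where over 12), up to 3 genes per other list and Myc, with further members as examples chosen after their values were seen. Replicate 1 was run in lane 7 and replicate 2 in lane 8, a shared lane, and deviations of same-numbered libraries correlated above 0.1 in 4 of 21 pairs of groups (range -0.17 to 0.48).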

Additional observations from a re-analysis of the deposited data

Results flagged for a closer look

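Responses to 6h of culture differed between genotypes, by a test of the difference itself, in 27 cases, all of them smaller or more negative in the knockout (edgeR adjusted p under 0.05, difference of log2 fold changes). In cko against wt these were Gnl3 at -1.14 and Ltv1 at -0.70. In dbko against wt the RNA polymerase I genes were Polr1b at -1.48, Ddx21 at -1.13 and Mybbp1a at -0.98, and the nucleolar protein was Ncl at -0.70. The snoRNP genes were Nolc1 at -1.48, Nop58 at -1.21 and Nop56 at -1.04. The processome genes were Utp4 at -1.28, Heatr1 at -1.19, Wdr43 at -1.13, Noc4l at -0.99, Utp15 at -0.91, Wdr75 at -0.86 and Nop14 at -0.68. The late small subunit genes were Rrp12 at -1.71, Tsr1 at -1.17, Bysl at -0.94 and Ltv1 at -0.57. The large subunit genes were Gnl3 at -1.56, Ppan at -1.44, Rrp1b at -1.28, Nle1 at -1.12, Noc2l at -0.95, Gnl2 at -0.93 and Rrs1 at -0.92. With a replicate block the adjusted p of Nle1 was 0.0541 and that of Rrs1 0.0515. Of 9 macrophage markers tested 7 had a larger response in dbko than in wt, while 0 of 9 erythroid markers passed that test in either direction. The part of the macrophage markers and of the split between the dbko replicates in these differences was not tested.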

How the results depend on the processing

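Every member had at least 100 counts in every library, and with 2 libraries a group the counts of calls moved with single libraries. Of 150 calls of members, 94 were lost under at least 1 setting, and of 1880 recomputed values 1503 kept direction and call, 375 kept direction only and 2 changed sign, both in dbko at 6h against 0h (Tsr1 0.05 and -1.23, and Nop16 1.14 and -0.01, without dbko replicate 1 and without dbko replicate 2 at both times). Of values that had not passed the test, library totals turned Polr1c and Ltv1 in wt at 6h against 0h to 0.13 and 0.07, and Myc in dbko against cko at 6h ran from -0.98 to 0.32 with libraries left out. The cause of these changes was not tested. In wt at 6h against 0h the 35 higher members stayed within 1.5 times that count under every setting run, 24 to 29 with a library left out.

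Fitted with the replicate block (lane), 145 of the 150 calls held and 5 did not (adjusted p 0.0503 to 0.0541: Wdr75 in wt at 27h against 6h, Rrp12 in dbko at 6h against 0h, Gnl3 in dbko against wt at 0h, and the responses of Nle1 and Rrs1 in dbko), no count of members moved by over 1.5 times, and there were 35 higher members in wt at 6h against 0h, 9 lower at 27h against 6h, 6 lower in dbko at 6h against 0h, 21 lower in dbko against wt at 6h and 23 smaller responses in dbko. The block within each genotype, 149 of 150 calls holding, gave 6 lower members in cko against wt at 6h and 7 smaller responses in cko, and genes called were 611 in cko and 2716 in dbko against wt at 0h. At 6h they were 1030 in cko against wt and 2700 in dbko against cko, with 588 and 2685 in the differences of responses of cko and dbko.

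With library totals, members called were 6 lower at 27h against 6h in wt, 21 higher and 1 lower in cko and 9 higher and 3 lower in dbko at 6h against 0h. With DESeq2 size factors 1 member was lower at 27h against 0h and 5 had smaller responses in cko. DESeq2 gave 8 lower members in cko against wt at 6h and 9 smaller responses in cko, with 312 genes called at 0h in cko against wt and 368 for the cko difference. With no filter on low counts members called were 17 lower at 27h against 6h in wt, 8 higher and 12 lower in dbko at 6h against 0h, 3 higher in cko and 15 in dbko against wt at 0h, 24 lower in cko and 32 in dbko against wt at 6h, and 19 smaller responses in cko, with genes called of 648 and 2361 at 0h in cko and dbko, 1030 at 6h in cko against wt, and 654 in the difference for cko.

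Fitting only the compared groups gave, for members, 2 higher and 22 lower at 27h against 6h, 1 lower at 27h against 0h, 18 higher in cko and 0 higher and 1 lower in dbko at 6h against 0h, 16 higher in cko and 1 in dbko against wt at 0h, 16 lower in cko and 5 in dbko against wt at 6h, and 30 smaller responses in cko and 6 in dbko. Genes called in these fits were 7507 at 27h against 6h, 1323 in dbko at 6h against 0h, 2661 in cko and 416 in dbko against wt at 0h, 1075 in dbko against wt and 190 in dbko against cko at 6h, and 1290 and 651 in the differences for cko and dbko.

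Leaving out libraries, members called ranged as follows. At 27h against 6h in wt there were 0 higher and 3 to 5 lower, and at 27h against 0h 13 to 19 higher. At 6h against 0h there were 5 to 8 higher in cko, and 0 to 22 higher and 3 to 29 lower in dbko. Against wt at 0h 0 were higher in cko and 0 to 31 in dbko. At 6h 0 to 5 were lower in cko and 9 to 36 in dbko against wt, and 0 to 2 higher and 0 to 32 lower in dbko against cko. Smaller responses numbered 0 to 2 in cko and 8 to 40 in dbko. Genes called ranged from 2143 to 2395 at 27h against 6h, from 39 to 49 in cko and 455 to 4615 in dbko against wt at 0h, from 70 to 448 in cko and 1327 to 5558 in dbko against wt at 6h, from 567 to 4365 in dbko against cko, and from 9 to 426 and 597 to 4035 in the differences for cko and dbko.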
